A study of Mus musculus with 8 samples.

Results

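Embryoid bodies grown for 10 days from mouse embryonic stem (ES) cells labelled Bmi1 were compared with embryoid bodies grown from ES cells carrying the empty vector. The comparison rests on 4 of the 8 arrays of the series, namely 2 labelled Bmi1 and 2 vector, and each array labelled Bmi1 was set against the vector array of the same replicate number. It was read across the 12982 genes that had a probe set with exactly 1 symbol and a signal above the array median in at least 2 of the 8 arrays. All cells were of the CCE line, strain 129/Sv, kept undifferentiated on gelatin with leukemia inhibitory factor. Per the labels, a lentivirus with a mouse Bmi1 cDNA or its empty version was introduced in the presence of polybrene, eGFP-positive cells were sorted by flow cytometry and expanded, and embryoid bodies were formed in bacterial Petri dishes. The remaining 4 arrays came from undifferentiated ES cells, 2 labelled Bmi1 and 2 controls, of which the first was untreated and the other carried the empty vector. Neither the promoter that drove the cDNA nor whether the sorted cells were a clone or a pool is stated in those labels. They also do not say whether replicates were grown as separate cultures, so the p-values reflect only array-to-array spread, which may be technical, and with so few arrays the precision is low.

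Embryoid bodies are free-floating aggregates in which ES cells, once the inhibitory factor is withdrawn, give rise to derivatives of all germ layers, including beating heart muscle, endothelium, primitive red cells and macrophages. Bmi1 is a subunit of Polycomb repressive complex 1, which places ubiquitin on histone H2A and keeps developmental genes such as the Hox clusters and the Cdkn2a locus silent. In adult tissue it is known for sustaining the self-renewal of blood stem cells. A whole embryoid body is measured as a mixture, so fewer cells of a type and less RNA per cell cannot be told apart in any of the values that follow.

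The arrays labelled embryoid body carried the marks of differentiation. Vector embryoid bodies stood below control ES cells in the pluripotency factors Pou5f1 (-5.07 log2 units) and Nanog (-3.49) and above them in the collagen gene Col3a1 (10.1), the yolk sac gene Afp (8.65) and the cardiac troponin Tnnt2 (5.26). Of the 15 defining markers set for this check, Tubb3, a neuronal tubulin, went the other way, at -2.51. The 8 arrays fell into 3 sets of near-equal value distributions, the replicate 1 embryoid bodies, the replicate 2 embryoid bodies and the ES cells. The mean pluripotency signal over 26 genes also followed the sets, at 8.11 in labelled Bmi1 and 7.81 in vector embryoid bodies of replicate 1 against 9.31 and 9.79 in those of replicate 2. Differences are therefore given within each replicate number, and the fit carried a term for the set. Each SE comes from this fit to all 8 arrays, and n = 2 is only the number of arrays a group. The SE leaves out the gap between replicate numbers. It draws more on the spread of the ES cell arrays than on that of the embryoid body arrays. The ES cell controls were unlike in treatment, untreated and empty vector. The SE is thus not the spread between the 2 arrays of a group.

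The gene named by the labels was examined first. Its own signal stood at 7.48 and 8.51 log2 units for labelled Bmi1 and at 9.35 and 9.67 for vector. Both arrays labelled Bmi1 lay below both vector arrays. The log2 difference, labelled Bmi1 minus vector, was -1.51 ± 0.25 (SE over n = 2 arrays a group, adjusted p = 0.0404 by limma with Benjamini-Hochberg adjustment, and 0.309 without the set term), with -1.86 within replicate 1 and -1.15 within replicate 2. A second Bmi1 probe set gave -1.59, and in ES cells the difference was -1.59. The sources used here do not state whether either probe set reads the introduced cDNA, and if both lie outside it their values do not check the labels. As the measured Bmi1 signal is opposite to what the labels name, the arrays are called labelled Bmi1 throughout, and each direction is that of the arrays so labelled.

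Across all genes, 271 were called, that is, had an adjusted p under 0.05, which is 2.09% of those tested. Of these, 175 were higher (1.35% of genes tested) and 96 lower (0.739%) in embryoid bodies labelled Bmi1. The rises were larger than the falls: the median called rise was 1.27 log2 units and the median called fall -0.85, and 113 rises against 29 falls reached 1 log2 unit. In 245 of the 271 genes both arrays labelled Bmi1 lay on the same side of both vector arrays, whereas 25.2% of all genes tested did so. The calls rest on the differences between these same arrays, so this share is not separate support for them. The median difference over all genes was -0.044. Called rises had a median of 1.41 within replicate 1 and 1.04 within replicate 2, and called falls had -0.82 in each. At least 1 log2 unit in both replicates was reached by 95 genes upward (0.732% of genes tested) and 18 downward (0.139%).

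**Figure D1:**
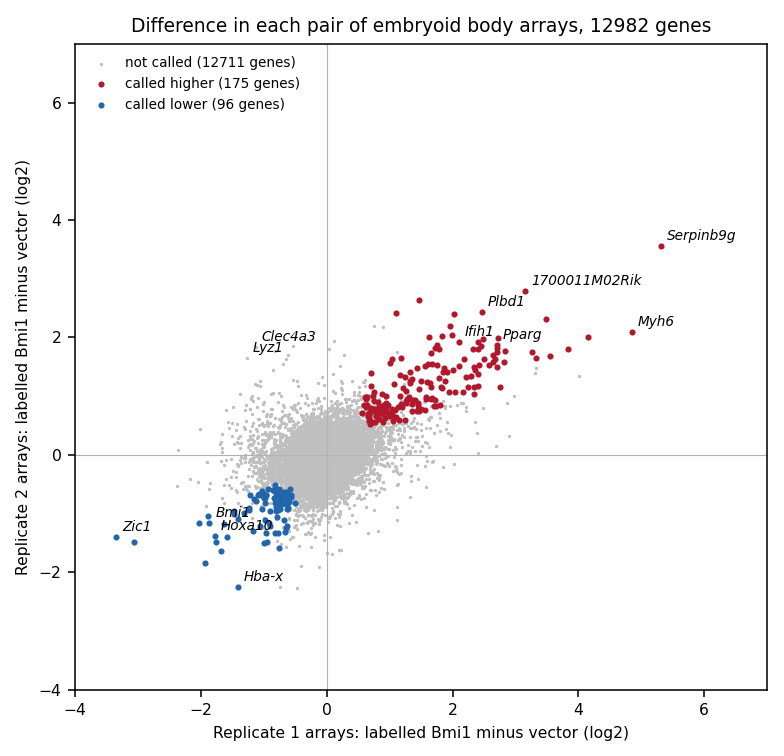
Each point is a gene, with the labelled Bmi1 minus vector difference in log2 units of the replicate 1 arrays on the x axis and of the replicate 2 arrays on the y axis. The 175 genes called higher (red) lie to the upper right, reaching Serpinb9g at 5.31 and 3.57, the 96 called lower (blue) lie to the lower left, and the leukocyte genes Lyz1 and Clec4a3 lie at the upper left with opposite signs.

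Over the 12982 genes the 2 replicate differences had a Pearson r of 0.43 and a Spearman rho of 0.33 (a description across genes, which are not independent and share a probe design within each array pair). The count of called genes depended on the set term and on which arrays entered. Without the set term 18 genes were called, all of them among the 271. They were Serpinb9g, Serpinb9d, 1700011M02Rik, Plbd1, Olr1, Pparg, Slco4a1, Dmkn, Sct, Pln, Isg20, Parp14, Ifi35, Mlkl, Rassf6, Arhgef6 and Tmem140, all higher, and Hoxa10, lower. Leaving out either replicate 1 embryoid body array, which leaves the replicate 2 difference, gave 9 calls, and leaving out either replicate 2 array gave 291, of which 113 were among the 271. Leaving out either ES cell array labelled Bmi1 gave 108, and either control ES cell array 56. With the 4 embryoid body arrays alone limma called 0 genes, with 1637 at an unadjusted p under 0.05.

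The steepest rise was that of Serpinb9g, which belongs to a family of intracellular serine protease inhibitors. It read 11.23 and 11.43 log2 units in labelled Bmi1 and 5.92 and 7.86 in vector embryoid bodies. The arrays labelled Bmi1 agreed closely and stood far above both vector arrays, of which replicate 1 was the lower. Its difference was 4.44 ± 0.36 (SE over n = 2 arrays a group, adjusted p = 0.00533). The difference of 1700011M02Rik was 2.98 ± 0.14, from 7.68 and 7.87 against 4.53 and 5.08, and it varied little between replicates. Its neighbour Dmrtc1a was also called higher, at 2.17 ± 0.15. In all of the 14 largest rises the vector array of replicate 1 was the lowest of the 4 arrays, as the plot of ranked genes shows, and the replicate 1 difference was the larger.

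**Figure D2:**
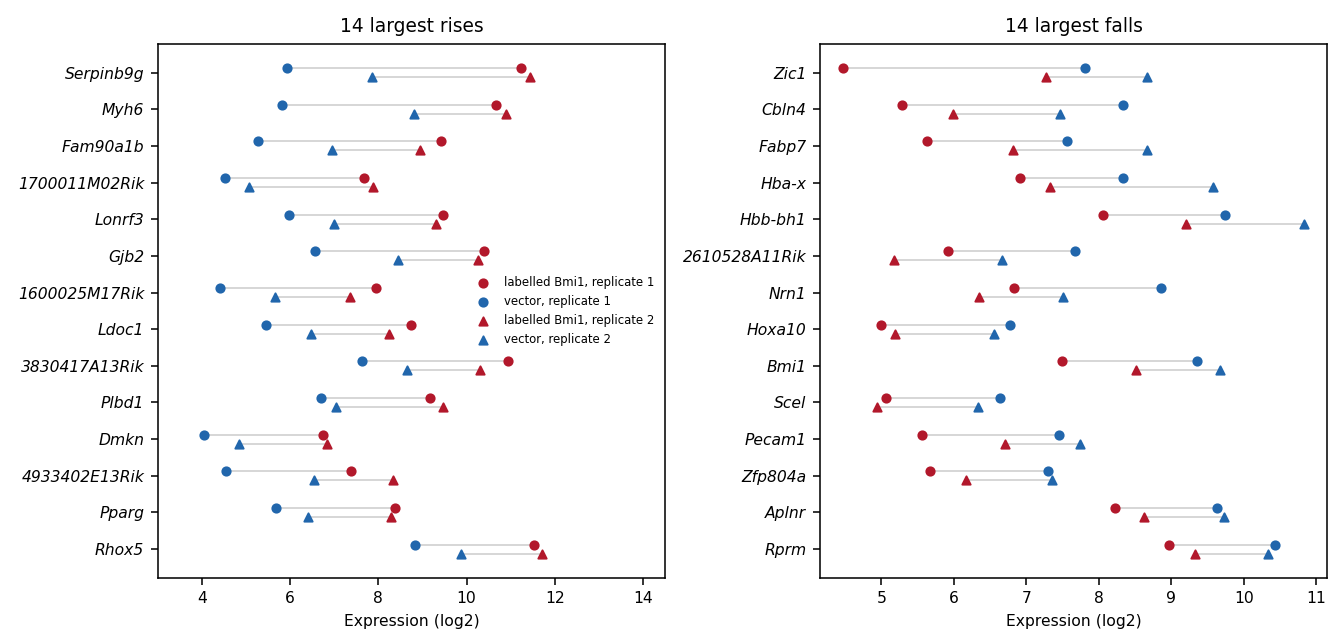
Log2 expression in each of the 4 embryoid body arrays for the 14 largest called rises (left) and the 14 largest called falls (right) among genes whose groups do not overlap; circles are replicate 1, triangles replicate 2, red is labelled Bmi1, blue is vector, and grey lines join the arrays compared. Rises run from 4.44 log2 units in Serpinb9g to 2.26 in Rhox5, and falls from -2.37 in Zic1 to -1.24 in Rprm.

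The largest group of related rises was that of interferon-stimulated genes. When a cell senses viral nucleic acid, sensors such as Ifih1 and Ddx58 trigger interferon secretion, and a complex that holds Irf9 then binds the interferon-stimulated response element in the promoters of antiviral genes. Of 36 antiviral effectors tested, 21 rose and 0 fell, or 58.3% against 2.09% of all genes. The median of the 36 differences was 0.92 log2 units, with 0.95 within replicate 1 and 0.79 within replicate 2, against -0.044 over all genes. In 28 of the 36 both arrays labelled Bmi1 lay above both vector arrays, against 10.8% of all genes. Among the 21, the calls of Parp14, Isg20 and Ifi35 were also made without the set term.

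Rsad2, which encodes the antiviral enzyme viperin, read 11.42 and 10.28 in labelled Bmi1 and 8.93 and 8.30 in vector embryoid bodies. Within each group replicate 1 was the higher, and the groups did not overlap. The difference was 2.23 ± 0.17 (SE over n = 2 arrays a group, adjusted p = 0.00452, and 0.135 without the set term). Isg20, an exonuclease that degrades viral RNA, read 7.64 and 7.48 against 5.78 and 6.07, a difference of 1.63 ± 0.13. Parp14, an ADP-ribosyltransferase, read 7.75 and 7.68 against 6.42 and 6.42, a difference of 1.29 ± 0.10. The replicates of Isg20 and Parp14 were close in both groups.

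Other effectors that rose were Oasl2 (1.90 ± 0.21), a relative of the RNA-sensing oligoadenylate synthetases, Gbp3 (1.82 ± 0.21), a guanylate-binding GTPase, and Lgals9 (1.70 ± 0.18), a galectin. Usp18, the protease that removes Isg15 from proteins and dampens interferon signalling, rose by 1.62 ± 0.24, with 2.16 within replicate 1 and 1.07 within replicate 2. Bst2, the tetherin that holds virions on the cell surface, rose by 1.12 ± 0.17. Members that were not called included Ifit3, at 0.65 ± 0.20 (adjusted p = 0.137), and Ifitm1, at -0.13 ± 0.17 (adjusted p = 0.702). The response was thus uneven over the list.

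**Figure D3:**
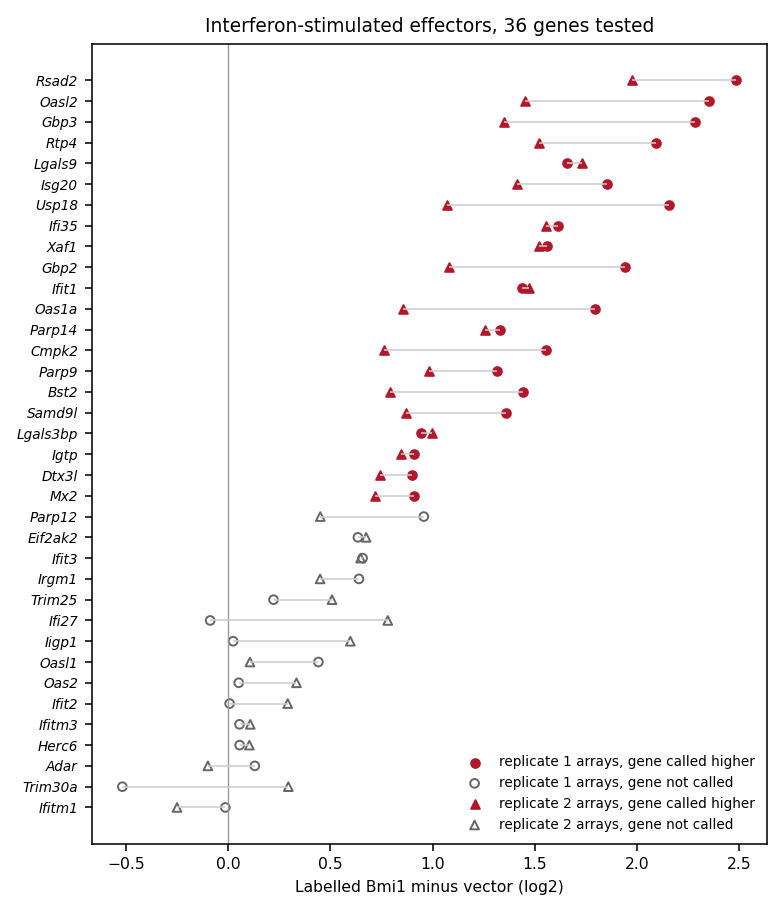
Labelled Bmi1 minus vector difference in log2 units (x axis) for each of the 36 interferon-stimulated effectors tested, ordered by the mean of the replicate 1 (circle) and replicate 2 (triangle) differences; filled red marks are the 21 genes called higher and open marks those not called. All called genes lie at or above 0.72 in both replicates, and Trim30a and Ifitm1 lie at the foot of the order.

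Among 25 sensors and signalling components, 5 rose and 0 fell, whereas 2.09% of all genes were called in either direction. The called share thus lay above that of all genes. The median was 0.07, so most members did not move with the effectors. Ifih1, a cytoplasmic sensor of long viral RNA, read 9.74 and 9.02 in labelled Bmi1 and 7.64 and 7.10 in vector embryoid bodies. Its groups were clear of each other, and the difference was 2.01 ± 0.12 (SE over n = 2 arrays a group, adjusted p = 0.00305, and 0.0761 without the set term). Ddx60, a helicase that aids such sensors, rose by 1.32 ± 0.12, Tlr3, the endosomal RNA receptor, by 1.28 ± 0.23, Stat2 by 1.07 ± 0.13 and Ddx58 by 0.84 ± 0.14. Irf9, the partner of Stat2, had a difference of 0.16 ± 0.11 (adjusted p = 0.44). None of the 5 was called without the set term.

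The promoters of the called genes were searched for the core of the interferon-stimulated response element, GAAA and a further GAAA with any 2 bases between them, on either strand, in RefSeq windows of assembly GRCm38.p6 that run from 250 bases before to 50 bases after a gene's start. Windows were matched for 143 of the 175 genes called higher and 67 of the 96 called lower. A gene was counted where any of its windows held a match. This was so for 15 of the 143 (10.5%) and 4 of the 67 (5.97%), against 357 of 10414 genes tested (3.43%) and 1131 of all 32851 windows (3.44%). Among the effectors, 8 of 16 called and 5 of 12 not called held it, and outside the effectors 7 of 127 genes called higher did (5.51%). These 7 were Ifih1, Ddx60, Stat2 and Ddx58 of the sensor list, the guanylate-binding genes Gbp7 and Gbp2b, and Tmem140. The 5.51% is therefore not a share among rises unrelated to interferon. Such a match is a description of the letters and does not show binding. The windows of 4 genes that rose are printed 5′ to 3′ on the gene's strand, because they show how the element sits near the start of an effector or sensor, with the element in capitals. They lie at chr12:26456403-26456702 (minus strand) for Rsad2, chr19:34640639-34640938 (plus) for Ifit1, chr3:142559794-142560093 (plus) for Gbp3 and chr8:61927837-61928136 (plus) for Ddx60.
Rsad2: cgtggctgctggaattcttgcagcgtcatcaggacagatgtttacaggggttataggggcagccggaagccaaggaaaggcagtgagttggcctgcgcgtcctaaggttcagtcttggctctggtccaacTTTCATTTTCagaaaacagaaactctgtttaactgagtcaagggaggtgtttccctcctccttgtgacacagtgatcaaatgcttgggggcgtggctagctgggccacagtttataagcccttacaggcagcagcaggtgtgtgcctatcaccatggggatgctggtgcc
Ifit1: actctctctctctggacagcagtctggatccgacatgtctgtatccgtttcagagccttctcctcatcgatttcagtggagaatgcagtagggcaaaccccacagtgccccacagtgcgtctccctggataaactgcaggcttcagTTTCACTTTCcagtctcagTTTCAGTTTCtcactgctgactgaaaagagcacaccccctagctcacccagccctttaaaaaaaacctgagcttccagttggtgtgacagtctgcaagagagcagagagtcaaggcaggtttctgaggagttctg
Gbp3: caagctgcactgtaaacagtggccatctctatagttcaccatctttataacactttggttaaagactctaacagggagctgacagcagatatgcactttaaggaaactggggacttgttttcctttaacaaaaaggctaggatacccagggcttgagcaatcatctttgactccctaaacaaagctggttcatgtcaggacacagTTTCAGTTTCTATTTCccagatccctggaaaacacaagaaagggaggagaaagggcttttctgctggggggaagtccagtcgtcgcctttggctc
Ddx60: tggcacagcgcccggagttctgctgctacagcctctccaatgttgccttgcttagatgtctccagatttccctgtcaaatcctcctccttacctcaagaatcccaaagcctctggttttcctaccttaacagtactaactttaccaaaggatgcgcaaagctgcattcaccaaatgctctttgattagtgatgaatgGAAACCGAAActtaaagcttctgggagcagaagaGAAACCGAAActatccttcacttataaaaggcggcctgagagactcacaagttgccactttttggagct

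Rsad2 held 1 element, starting 120 bases before the gene's start, on the strand opposite to the gene. Ifit1, Gbp3 and Ddx60 each held 2, and in Gbp3 these overlapped and shared a TTTC. Ifit1, whose protein binds viral RNA that lacks the host's cap methylation, read 9.01 and 8.42 in labelled Bmi1 and 7.57 and 6.95 in vector, a difference of 1.45 ± 0.16. The element alone did not separate called from other effectors, since Ifit3, Eif2ak2, Irgm1, Ifitm3 and Trim30a held it and were not called. Simple forms of 3 other factors' motifs were searched the same way. The TFAP2 form GCCNNNGGC was found for 28.0% of genes called higher, 28.4% of those called lower and 29.1% of those tested, and the GATA form AGATAAG for 3.5%, 2.99% and 2.42%. The ETS form ACCGGAAGT was found for 0 of the 143 genes called higher, 2.99% of those called lower and 2.29% of those tested.

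Antigen presentation and cell death genes, which interferon can also induce, were mostly not called. Of 17 MHC class I and antigen processing genes, 0 passed the test by limma (6 at an unadjusted p under 0.05), with a median of 0.20, and 7 of the 17 lay above vector without overlap, against 10.8% of all genes. The peptide transporter Tap1 read 7.54 and 7.40 against 6.54 and 6.92, a difference of 0.74 ± 0.17 (adjusted p = 0.0809), and H2-K1 differed by 0.86 ± 0.24 (adjusted p = 0.115). Of 18 necroptosis and inflammatory caspase genes, 1 rose (5.56%, against 2.09% of all genes). This was Mlkl, the protein that ruptures the plasma membrane in necroptosis, which read 7.41 and 6.97 in labelled Bmi1 and 4.91 and 5.34 in vector embryoid bodies. Its difference was 2.07 ± 0.22 (SE over n = 2 arrays a group, adjusted p = 0.0153). Its partners on the list stood at lower values, for instance Zbp1 at 0.37 ± 0.12 (adjusted p = 0.159). A second probe set of Zbp1 gave 0.97, with 1.18 within replicate 1 and 0.75 within replicate 2.

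Macrophages are a common source of interferon-stimulated transcripts, so their markers are given here. The mean signal of 23 macrophage and leukocyte genes was 7.77 in labelled Bmi1 and 8.83 in vector embryoid bodies of replicate 1, and 7.55 and 6.87 in those of replicate 2. Over the same arrays the effectors had means of 8.82, 7.79, 8.62 and 7.79. The leukocyte genes thus lay lower in labelled Bmi1 in replicate 1 and higher in replicate 2, while the effectors lay higher in both. The part of leukocytes in the interferon-stimulated values was not tested.

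Clade B serpins, a family with members that block granzymes and cathepsins inside cells, rose in part. Of 8 tested, 4 rose, and these 4, Serpinb9b, Serpinb9c, Serpinb9d and Serpinb9g, are neighbours on chromosome 13. Serpinb9d read 6.97 and 6.95 in labelled Bmi1 and 5.01 and 4.75 in vector embryoid bodies, with a difference of 2.08 ± 0.12 (adjusted p = 0.00305). Serpinb9b rose by 1.98 ± 0.31 and Serpinb9c by 1.29 ± 0.17, and a second probe set of Serpinb9c gave 3.36. Probes of such similar genes may read each other's transcripts, so the values of the 4 are not independent.

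Some placental genes also rose. Trophoblast is the outer lineage of the embryo that builds the placenta, and it does not usually arise in quantity from ES cells. Of 19 trophoblast and placental genes tested, 5 rose and 0 fell (26.3%, against 2.09% of all genes). The median was 0.89 log2 units, with 1.07 within replicate 1 and 0.81 within replicate 2. In 12 of the 19 the groups did not overlap upward, against 10.8% of all genes, and 5 of the 19 were lower in both replicates. Sct, the hormone secretin, read 9.13 and 9.03 in labelled Bmi1 and 7.22 and 7.62 in vector embryoid bodies. Its replicates were tight, and the difference was 1.67 ± 0.16 (SE over n = 2 arrays a group, adjusted p = 0.0114).

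Rhox5, an X-linked homeobox gene of the placenta and gonads, read 11.52 and 11.70 against 8.82 and 9.88, a difference of 2.26 ± 0.25 (adjusted p = 0.0159, and 0.0994 without the set term). Plac1, which placental growth requires, read 10.07 and 9.26 against 8.24 and 8.12, a difference of 1.49 ± 0.17. Peg10, a paternally expressed retrotransposon-derived gene, rose by 1.26 ± 0.17, and Dlx3, a homeobox factor of the labyrinth, by 0.72 ± 0.12. Members that set up the trophoblast lineage were not called: Tfap2c stood at 1.51 ± 0.41 (adjusted p = 0.114), with 2.13 and 0.88 in the 2 replicates, Ascl2 at 0.89 ± 0.22 (adjusted p = 0.0921) and Cdx2 at -0.63 ± 0.18 (adjusted p = 0.123).

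The placental prolactins, hormones of trophoblast giant cells and spongiotrophoblast, were looked up after the values were seen, so their count supports nothing further. Of 6 tested, Prl6a1 (2.05 ± 0.25), Prl2a1 (1.76 ± 0.28) and Prl7d1 (1.70 ± 0.24) were called higher. In both replicates 5 of the 6 were higher, against 25.4% of all genes. Prl6a1 read 6.12 and 8.51 in labelled Bmi1 and 4.65 and 5.88 in vector embryoid bodies, so the replicate 2 arrays were the higher in each group. Prl7d1 read 5.80 and 8.74 against 3.55 and 7.59, where the groups overlapped and the rise appears only within replicate numbers. The cathepsin Ctsj, made by the placenta, behaved alike, at 5.65 and 8.55 against 3.25 and 7.38 (difference 1.79 ± 0.26). Among 15 cathepsins tested Ctsj was the 1 called, and their median was -0.30.

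Epithelial genes lay higher as a group, with more in replicate 1. Of 27 junction and keratin genes, 3 rose and 0 fell (11.1%, against 2.09% of all genes). The median was 0.67, with 1.00 within replicate 1 and 0.38 within replicate 2. Cldn23, a tight junction claudin, read 7.64 and 7.87 in labelled Bmi1 and 5.19 and 6.02 in vector embryoid bodies, a difference of 2.15 ± 0.16 (adjusted p = 0.00452). Dmkn, the secreted skin protein dermokine, read 6.76 and 6.84 against 4.04 and 4.85, a difference of 2.35 ± 0.18. Its neighbour Sbsn, suprabasin, rose by 2.15 ± 0.28, and Cldn3 by 0.70 ± 0.11. Krt8, a keratin of simple epithelia, was not called, at 11.86 and 12.08 in labelled Bmi1 and 10.53 and 12.04 in vector embryoid bodies, of which the replicate 1 array stood apart as low.

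Connexins form gap junctions between cells. Of 5 tested 2 rose (40.0%, against 2.09% of all genes), both of the beta group found in epithelia and placenta. Gjb2 read 10.40 and 10.26 in labelled Bmi1 and 6.56 and 8.45 in vector embryoid bodies, a difference of 2.83 ± 0.42 (adjusted p = 0.0328, and 0.178 without the set term). Gjb5 read 8.73 and 8.51 against 6.01 and 7.02, a difference of 2.10 ± 0.27. Gjc1, a connexin of vessels and heart, stood at -0.57 ± 0.18 (adjusted p = 0.148).

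Several of the largest rises lay on the X chromosome, which was looked up after the calls were known. Of 366 tested X-linked genes with a promoter window, 19 were called higher (5.19%) and 2 lower. On other chromosomes 124 of 10048 genes with a window were called higher (1.23%). No tested gene of chromosome 18 had a window, so the comparison lacks that chromosome. The 19 included Fam90a1b (3.08 ± 0.43), Lonrf3 (2.89 ± 0.37), 1600025M17Rik (2.62 ± 0.39), Mbnl3 (1.91 ± 0.21), a regulator of splicing, and Arhgef6 (1.81 ± 0.12), an exchange factor for small GTPases, besides Rhox5 and Plac1. The second probe set of Lonrf3 gave 1.18. A run of neighbours was formed by Ldoc1 (2.51 ± 0.37), 3830417A13Rik (2.49 ± 0.39) and 4933402E13Rik. Xist, the RNA that silences an X chromosome, read 6.98 and 7.21 in labelled Bmi1 and 6.80 and 7.11 in vector embryoid bodies, a difference of 0.14 ± 0.19 (adjusted p = 0.732). These values are of its brightest probe set. Its further probe sets were dim, with means over the 8 arrays of 3.41 and 3.27, so whether Xist was expressed is not settled. The median difference of X-linked genes was -0.045, close to that of all genes.

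Pparg, the nuclear receptor that drives lipid storage and is also needed in placenta and macrophages, rose. So did 2 others of the 21 genes tested on the Pparg and lipid uptake list (14.3% called, against 2.09% of all genes). Pparg is given first. It read 8.37 and 8.28 in labelled Bmi1 and 5.67 and 6.40 in vector embryoid bodies, a difference of 2.29 ± 0.20 (SE over n = 2 arrays a group, adjusted p = 0.00749). Plbd1, a lysosomal phospholipase B-like protein, read 9.16 and 9.47 against 6.70 and 7.04, a difference of 2.45 ± 0.14 that was nearly equal in the replicates, at 2.46 and 2.43. Olr1, a scavenger receptor for oxidised lipoprotein, read 6.37 and 6.73 against 4.55 and 4.70, a difference of 1.92 ± 0.13. All 3 were called without the set term too. The list as a whole had a median of -0.01, which turned to 0.025 under quantile normalization, so the other members did not follow.

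Heart muscle genes lay higher in labelled Bmi1, mainly in replicate 1. Of 27 tested, 6 rose and 1 fell (25.9%, against 2.09% of all genes). The median was 0.75, with 1.34 within replicate 1 and 0.24 within replicate 2. The list's mean signal was 8.08 and 8.31 in labelled Bmi1 and 6.81 and 7.91 in vector embryoid bodies, and the replicate 1 vector array was the lowest. Pln, the regulator phospholamban of the calcium pump, read 7.69 and 7.82 against 5.90 and 6.02. Its 4 arrays were tight within groups, the difference was 1.80 ± 0.14 (SE over n = 2 arrays a group, adjusted p = 0.00478), and 2 further probe sets gave 1.63 and 1.97.

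Myh6, the fast heart myosin, read 10.66 and 10.90 in labelled Bmi1 and 5.81 and 8.81 in vector embryoid bodies. The vector arrays lay 3 log2 units apart from each other, and the difference was 3.47 ± 0.62 (adjusted p = 0.0468, and 0.313 without the set term), with 4.85 and 2.10 in the 2 replicates. A dim second probe set of Myh6 gave 0.82. Nppb, the natriuretic peptide of the ventricle, rose by 2.20 ± 0.28, Csrp3, a protein of the sarcomere's Z disc, by 1.29 ± 0.17, Tnni3, the cardiac troponin inhibitor, by 1.32 ± 0.18 and Ttn, titin, by 1.12 ± 0.16. Gata4, an early cardiac and endodermal transcription factor, read 6.23 and 6.69 against 7.15 and 7.86 and fell by 1.04 ± 0.15 on the log2 scale. Myl7, the atrial light chain, was not called, at 9.94 and 10.34 against 7.54 and 10.31. In the 15 smooth muscle genes 0 passed the test by limma (2 at an unadjusted p under 0.05), and their median of -0.05 became 0.003 under quantile normalization.

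Endothelial genes lay lower in both replicates. Of 27 tested, 7 fell and 0 rose (25.9%, against 2.09% of all genes). In both replicates 25 of the 27 were lower, against 36.3% of all genes. The median was -0.67, with -0.70 within replicate 1 and -0.67 within replicate 2, and in 22 of the 27 both arrays labelled Bmi1 lay below both vector arrays, against 14.4% of all genes. The mean signal was 7.28 and 7.41 in labelled Bmi1 and 8.05 and 8.04 in vector embryoid bodies. None of the 7 calls was made without the set term.

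Aplnr, the apelin receptor of vessel precursors, read 8.22 and 8.62 in labelled Bmi1 and 9.63 and 9.72 in vector embryoid bodies, a difference of -1.25 ± 0.13 (SE over n = 2 arrays a group, adjusted p = 0.0134, and 0.0921 without the set term). Its second probe set gave -0.52. Pecam1, a junction protein shared by endothelium and early blood cells, read 5.56 and 6.70 against 7.45 and 7.74, a difference of -1.47 ± 0.23. Tek, the angiopoietin receptor, read 6.66 and 7.12 against 7.90 and 8.06, a difference of -1.09 ± 0.16. For each of these genes both vector arrays stood above both arrays labelled Bmi1. For Aplnr and Pecam1 this follows from their choice among the largest falls, which required it.

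Emcn, a surface sialomucin, fell by 0.96 ± 0.14 on the log2 scale, Sox18 by 0.88 ± 0.15, Sox17 by 0.83 ± 0.13, both regulators of vessel and endothelial fate, and Calcrl, the adrenomedullin receptor, by 0.69 ± 0.10. The receptors for vascular endothelial growth factor did not pass the test: Kdr read 8.69 and 8.31 against 9.26 and 8.84 (difference -0.55 ± 0.11, adjusted p = 0.062), and Flt1 stood at -0.45 ± 0.12 (adjusted p = 0.114). Cdh5, the cadherin that defines endothelial junctions, had the smallest difference of the list, -0.21 ± 0.23 (adjusted p = 0.654). Each of the 27 genes thus had a negative mean difference, although 20 of them did not pass the test.

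**Figure D4:**
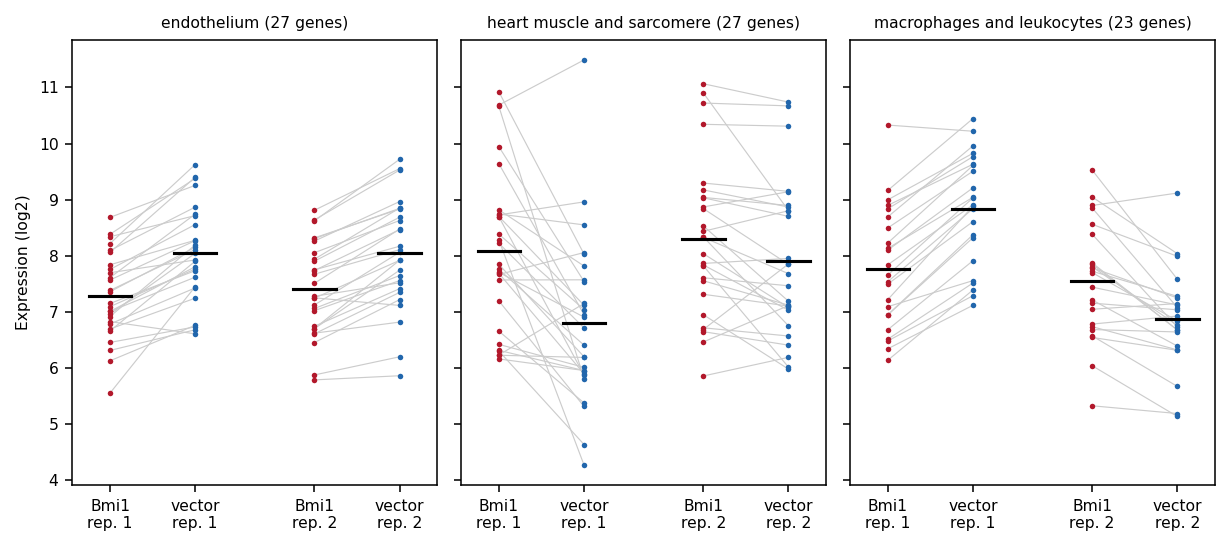
Log2 expression of each gene of the endothelium (27 genes), heart muscle (27 genes) and macrophage and leukocyte (23 genes) lists in the 4 embryoid body arrays, labelled Bmi1 in red and vector in blue, with grey lines joining a gene between the arrays compared and black bars at the list mean. Endothelial means are 7.28 and 7.41 against 8.05 and 8.04, whereas the leukocyte means of the vector arrays, 8.83 and 6.87, bracket those of the arrays labelled Bmi1.

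Primitive red cells are the first blood cells of the embryo and carry embryonic globins. Of 12 genes tested, 2 fell and 1 rose, whereas 2.09% of all genes were called in either direction. The median was -0.29. In both replicates 9 of the 12 were lower, against 36.3% of all genes, and 2 were higher, against 25.4%. Hba-x, the embryonic zeta chain, read 6.92 and 7.33 in labelled Bmi1 and 8.33 and 9.58 in vector embryoid bodies, a difference of -1.83 ± 0.19 (SE over n = 2 arrays a group, adjusted p = 0.0149, and 0.202 without the set term). Hbb-bh1, an embryonic beta-like chain, read 8.06 and 9.19 against 9.74 and 10.83, a difference of -1.66 ± 0.18. For both globins the replicate 2 arrays were the higher within a group. Their groups did not overlap, which the choice of the largest falls required. A further embryonic globin, Hbb-y, stood at -1.40 ± 0.26 (adjusted p = 0.0511).

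The rise on that list was Tfrc, the transferrin receptor, which every dividing cell uses for iron uptake. It read 12.12 and 12.25 in labelled Bmi1 and 10.65 and 11.13 in vector embryoid bodies, a difference of 1.30 ± 0.12, and 2 further probe sets gave 1.49 and 1.30. It went against the globins of the same list. Of 18 iron handling genes Tfrc was the 1 that passed (5.56%, against 2.09% of all genes). The ferritin chain Fth1 stood at -0.51 ± 0.12 (adjusted p = 0.0802).

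Among 20 blood transcription factors 1 rose and 1 fell (10.0%, against 2.09% of all genes), with a median of -0.29. Gata2, which acts in blood stem cells and also in trophoblast and endothelium, read 8.64 and 8.79 in labelled Bmi1 and 7.01 and 7.57 in vector embryoid bodies, a difference of 1.43 ± 0.14 (adjusted p = 0.0109), and its second probe set gave 1.25. Lyl1, a helix-loop-helix factor of blood and endothelium, read 6.41 and 6.57 against 7.33 and 7.15, a difference of -0.75 ± 0.12. Its close relative Tal1, the master regulator of blood formation, read 5.64 and 6.60 against 6.69 and 7.47, a difference of -0.96 ± 0.17 (adjusted p = 0.0508). Runx1, needed for definitive blood stem cells, stood at 0.12 ± 0.16 (adjusted p = 0.712), with 0.44 and -0.19 in the 2 replicates, and Gata1, the erythroid factor, at -0.38 ± 0.12 (adjusted p = 0.146).

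Macrophage and leukocyte genes differed in opposite directions in the 2 replicates. Over the 23 tested the median was -1.11 within replicate 1 and 0.57 within replicate 2, and 0 were called by limma (3 at an unadjusted p under 0.05). Ptprc, the pan-leukocyte phosphatase, read 7.84 and 7.85 in labelled Bmi1 and 8.91 and 6.68 in vector embryoid bodies. The arrays labelled Bmi1 were nearly equal, and the vector arrays lay on either side of them. Lyz1, a lysozyme of phagocytes, read 8.69 and 8.38 against 9.96 and 6.73.

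Genes at least 1 log2 unit lower in replicate 1 and at least 1 higher in replicate 2 numbered 8, and Reep6 showed the reverse. These 8, singled out by their values, were Adgre1, Aldh1a7, Cd53, Clec4a3, Fermt3, Lyz1, Ptprc and Rassf4, most of them genes of macrophages or leukocytes. Csf1r, the receptor for the macrophage growth factor, read 10.33 and 9.53 against 10.22 and 7.58, a difference of 1.03 ± 0.38 (adjusted p = 0.195). In the 9 megakaryocyte and mast cell genes 0 passed the test by limma (2 unadjusted), and Kit, the stem cell factor receptor, stood at -0.73 ± 0.21 (adjusted p = 0.12).

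The Hox clusters, classical Polycomb targets, pattern the body axis and limbs. Of 18 Hox genes tested over all clusters, 4 fell and 0 rose (22.2%, against 2.09% of all genes). The median was -0.30, and the 4 belong to the posterior ends of the Hoxa and Hoxd clusters. Hoxa10 read 4.99 and 5.19 in labelled Bmi1 and 6.77 and 6.56 in vector embryoid bodies, a difference of -1.57 ± 0.16 (adjusted p = 0.0124). Hoxd10 fell by 1.21 ± 0.15, Hoxa11 by 1.21 ± 0.16 and Hoxd11 by 0.64 ± 0.11 on the log2 scale. Hoxa10 and Hoxa11 are neighbours, together with the called antisense gene Hoxa11os, and Hoxd10 and Hoxd11 are neighbours too. A dim second probe set of Hoxa10 gave -0.33.

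Of 25 neural genes 4 fell and 0 rose (16.0%, against 2.09% of all genes), with a median of -0.45. Fabp7, the fatty acid carrier of radial glia, read 5.63 and 6.82 in labelled Bmi1 and 7.56 and 8.67 in vector embryoid bodies, a difference of -1.89 ± 0.17 (adjusted p = 0.00866, and 0.318 without the set term). Zic1, a zinc finger factor of the dorsal neural tube, read 4.47 and 7.27 against 7.81 and 8.66, a difference of -2.37 ± 0.42, with -3.34 and -1.40 in the 2 replicates. Cbln4, a secreted synaptic organiser, fell by 2.27 ± 0.33 and Nrn1, a neurite outgrowth factor, by 1.59 ± 0.20 on the log2 scale. In each of the 4 genes the arrays labelled Bmi1 lay below both vector arrays. All 4 are among the largest falls, which were picked only from genes without overlap, so this follows from the choice.

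**Figure D5:**
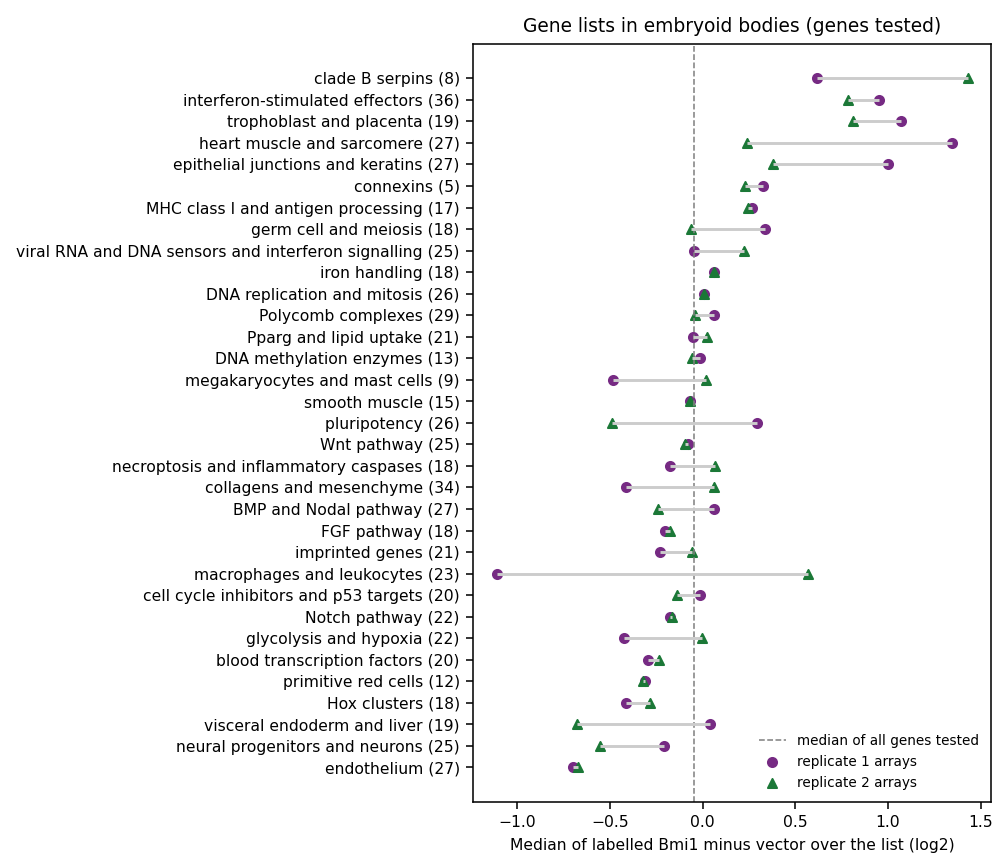
Median labelled Bmi1 minus vector difference in log2 units (x axis) of each gene list in the replicate 1 (circles) and replicate 2 (triangles) arrays, with the number of genes tested in brackets and a dashed line at the median of all genes, -0.044. Interferon-stimulated effectors lie to the right and endothelium to the left in both replicates, while macrophages and leukocytes (-1.11 and 0.57) and pluripotency (0.29 and -0.49) change sign between them.

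Visceral endoderm and pluripotency genes differed between replicates, and 0 were called by limma (7 and 5 at an unadjusted p under 0.05). The 19 endoderm and liver genes had a median of 0.04 within replicate 1 and -0.68 within replicate 2, and Apoa1, the lipoprotein of yolk sac and liver, read 6.90 and 6.79 in labelled Bmi1 and 7.37 and 9.06 in vector embryoid bodies (adjusted p = 0.109). The 26 pluripotency genes had medians of 0.29 and -0.49, and Pou5f1 read 7.80 and 8.26 against 7.44 and 9.43. For both of these genes the replicate 2 vector array was the highest. Of 18 germ cell genes 0 passed by limma (7 unadjusted), although Tex11, an X-linked meiosis gene, read 6.09 and 6.54 against 3.50 and 4.36 (difference 2.38 ± 0.53, adjusted p = 0.0765).

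Of 29 Polycomb genes 1 rose and 1 fell (6.90%, against 2.09% of all genes), with a median of 0.03. Ezh1, a histone H3 methyltransferase, rose by 0.63 ± 0.11 (adjusted p = 0.0449), while its second probe set gave -0.14, and Bmi1 was the gene that fell. Pcgf5, a relative of Bmi1, read 10.05 and 9.88 in labelled Bmi1 and 8.85 and 9.20 in vector embryoid bodies, a difference of 0.95 ± 0.17 (adjusted p = 0.0508). The catalytic partner Rnf2 stood at -0.01 ± 0.11. Of 20 cell cycle inhibitors and p53 targets 0 passed by limma (5 at an unadjusted p under 0.05), with a median of -0.20. Cdkn2a, the locus by which Bmi1 is best known to sustain proliferation, was dim in embryoid bodies, at 3.96 and 3.83 against 4.42 and 4.16 (difference -0.39 ± 0.12, adjusted p = 0.143). In ES cells Cdkn2a was called lower by limma, at 4.81 and 4.81 in labelled Bmi1 against 6.11 and 5.88 in controls (-1.185 ± 0.12, adjusted p = 0.017). Cdkn2b stood at -0.70 ± 0.15 in embryoid bodies (adjusted p = 0.0737). The 26 replication and mitosis genes had a median of 0.04 and 0 calls (5 unadjusted), with Rrm2 at 0.42 ± 0.11.

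In the Wnt, FGF and Notch lists 1 gene each fell (4.0%, 5.6% and 4.5%, against 2.09% of all genes). Rspo3, a secreted enhancer of Wnt signalling, read 7.79 and 7.78 in labelled Bmi1 and 8.55 and 9.36 in vector embryoid bodies, a difference of -1.17 ± 0.21 (adjusted p = 0.0497), and its dim second probe set gave 0.22. It was the 1 of 25 Wnt genes that passed. Fgf15, a growth factor of the neural tube, was the 1 of 18 FGF genes, at -1.13 ± 0.20. Its groups overlapped, and its adjusted p by limma without the set term was 0.783. Nrarp, a feedback inhibitor of Notch, was the 1 of 22 Notch genes, at -0.95 ± 0.15, and its second probe set gave -0.25. Of 27 BMP and Nodal genes 0 passed by limma (4 at an unadjusted p under 0.05), with Smad1 at -0.47 ± 0.11 (adjusted p = 0.0797). The same was true of 34 collagen and mesenchyme genes (median -0.11, 2 unadjusted), 21 imprinted genes (-0.16, 5 unadjusted), 22 glycolysis and hypoxia genes (-0.22, 8 unadjusted) and 13 DNA methylation enzymes (2 unadjusted), whose median of -0.02 became 0.052 under quantile normalization. Over all genes 2770 had an unadjusted p under 0.05 by limma.

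The embryoid body calls were set beside the same difference in undifferentiated ES cells, which rests on 4 other arrays and called 216 genes (1.66%). The 175 genes called higher in embryoid bodies had a median ES cell difference of 0.11, and 7 of them were called higher there too, against 1.39% of all genes: Rhox5, Gbp2, Morc4, Med12l, Marveld3, H2-Bl and Batf3. Rhox5 had a difference of 2.56 in ES cells and 2.26 in embryoid bodies. Ttn was called in the opposite direction, with -1.58 in ES cells. Among the 96 genes called lower, the ES cell median was 0.03, Bmi1 and Pura were called lower in ES cells too, and Sox18 and AI504432 were called higher there. The interferon-stimulated effectors had a median of -0.03 in ES cells, with 1 called, and the endothelial genes had 0.05.

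A test of the difference between the stages called 107 genes (0.824%), of which 37 were among the 175 and 21 among the 96. These counts share the embryoid body arrays with the calls. Rsad2 had a difference of 0.15 in ES cells against 2.23 in embryoid bodies, and the difference between stages, 2.08, passed the test (adjusted p = 0.0224). Most called genes also differed between stages in the control arrays. Of the 175, 96 were called higher and 39 lower in vector embryoid bodies than in control ES cells, and of the 96, 61 were higher and 30 lower, against 74.8% of all genes called in either direction.

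Some called genes were neighbours on the chromosome. Of the 175 genes called higher 28 (16.0%) had a directly neighbouring tested gene that was called in the same direction, as had 5 of the 96 called lower (5.21%). Of all 12926 tested genes with a position, 2.64% had a neighbour called higher and 1.47% a neighbour called lower. Neighbours of a gene family, such as the serpins and guanylate-binding genes, may share probe signal. Besides the serpin, Ldoc1 and Hox runs, the guanylate-binding genes Gbp7, Gbp3, Gbp2b and Gbp2 formed a run, as did Parp14, Dtx3l and Parp9, and Rsad2 lay beside Cmpk2. Gbp2 read 8.86 and 7.99 in labelled Bmi1 and 6.91 and 6.91 in vector embryoid bodies, and Cmpk2, a nucleotide kinase, read 8.19 and 7.80 against 6.63 and 7.04. The groups did not overlap in either gene.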

How the data were processed

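The authors deposited log2 expression values of 8 Affymetrix arrays from the RMA method (named in the submitters' processing notes without a version). Which arrays were normalized together is not stated. Biotin-labelled target came from 1 microgram of RNA, per the labels. The labels give no depth for arrays.

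Of 45037 non-control probe sets, 34945 had 1 gene symbol in the platform annotation, 932 several and 9160 none. Each of 18193 genes was represented by its brightest probe set (mean of 8 arrays), and 5211 dim genes were left out, which left 12982. limma 3.58.1 in R 4.3.3 (lmFit, eBayes, default prior) was fitted to all 8 arrays with 4 states and a term for the embryoid body set, leaving 3 residual degrees of freedom. Tests were two-sided, with Benjamini-Hochberg adjustment over 12982 genes and a threshold of 0.05. Printed SEs are the moderated ones of this fit and do not include the gap between replicate numbers. Arrays of both stages share 1 spread per gene. Replicates of embryoid bodies lay 0.51 (labelled Bmi1) and 0.67 (vector) log2 units apart as a root mean square over genes.

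The replicate numbers pair the embryoid body arrays by the set: deviations from the group means of the replicate 1 arrays correlated at 0.72, and the labels do not say whether a number marks a culture, a batch or a processing run.

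The genes named were Bmi1, the 14 largest rises and falls among called genes without overlap between groups, and up to 3 genes with the smallest p from each of 34 lists. The lists held 894 entries, of which 823 matched a gene (8 through synonyms) and 693 were tested. Further genes are named to fill out a list or a run, and were chosen after their values were seen. The members and lists were chosen with earlier results of these data known. Promoters came from RefSeq windows of 300 bases (GRCm38.p6), matched by Entrez gene identifier. No tested gene of chromosome 18 had a window, so the motif and X chromosome counts lack that chromosome. Of the 271 called genes 76 stood in a list. Alternatives covered the set term, the arrays fitted, the dim filter, the probe set, the scaling, the prior and leaving out each array.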

Additional observations from a re-analysis of the deposited data

Results flagged for a closer look

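For 31 of the 115 named genes the labelled Bmi1 minus control difference differed between embryoid bodies and ES cells by limma's contrast of the differences, at an adjusted p under 0.05 over 12982 genes. Values are the embryoid body difference minus the ES cell difference in log2 units. These genes were named partly for their embryoid body difference, and the contrast uses the same embryoid body arrays.

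Among genes with a larger difference in embryoid bodies, the serpins Serpinb9g (4.46) and Serpinb9d (1.86), the epithelial and connexin genes Gjb5 (2.86), Dmkn (2.22) and Cldn23 (1.91), and the lipid genes Pparg (2.36), Plbd1 (1.91) and Olr1 (1.86) stood out. Interferon-related genes in this group were Rsad2 (2.08), Ifih1 (2.07), Ddx60 (1.6), Isg20 (1.42) and Parp14 (1.3). The others were 1700011M02Rik (2.83), Pln (1.83), Sct (1.6) and Tfrc (1.3).

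The labelled Bmi1 minus control difference was lower in embryoid bodies than in ES cells for the endothelial genes Aplnr (-1.19) and Tek (-1.52), the globin Hbb-bh1 (-1.88), Hoxa10 (-1.55), Fabp7 (-2.62), Zfp804a (-1.43), Scel (-1.55), 2610528A11Rik (-1.55) and Rprm (-1.85). For Dab2 (-2.08), Grb10 (-2.31), Nnat (-1.96), Ndn (-1.83) and Cdh2 (-1.62) the embryoid body difference was not called, and the ES cell difference was called higher, for instance at 1.57 for Grb10 and 1.42 for Nnat. Grb10, Nnat and Ndn are imprinted genes.

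The count of such genes over all tested, 107, was 0 by limma without the set term (887 at an unadjusted p under 0.05). It was also 0 without either replicate 1 embryoid body array (2196 unadjusted), without the replicate 1 ES cell array labelled Bmi1 (1638) and without the first or the other control ES cell array (1562 and 1603).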

How the results depend on the processing

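Main counts of called genes were 271 in embryoid bodies, 216 in ES cells and 107 for the difference between stages. With no replicate block, that is, without the set term, they were 18, 6 and 0 by limma (917, 817 and 887 at an unadjusted p under 0.05). The embryoid body arrays alone, with the block, gave 0 (1637 unadjusted). The second probe set of a gene, for 7770 genes, gave 51, 39 and 23. Quantile normalization gave 519, 32 and 69. The filter at the 75th percentile gave 173 in embryoid bodies, the prior with trend and robust estimation 420, of which 56.4% were higher against 64.6% in the main fit, and averaging each gene's probe sets 133 in ES cells. Leaving out each array in turn gave 9 to 291 in embryoid bodies, 0 to 139 in ES cells, with 0 without either control array (1233 and 1199 unadjusted by limma), and 0 to 242 between stages. Other alternatives stayed within 1.5 times of the main counts. The cause of these shifts was not tested, apart from the fewer genes tested under the stricter filter and the second probe set, and the fewer arrays.

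Among the 115 named genes the direction turned only with the second probe set, in Scel (0.38), Tapbp (-0.43), Ezh1 (-0.14), Rrm2 (-0.091) and Rspo3 (0.22), none of them called there. Of their calls 44 were lost without the set term, 57 with embryoid body arrays alone, 53 without either replicate 1 embryoid body array, 12 without either replicate 2 array, 17 without either ES cell array labelled Bmi1 and 30 without either control ES cell array. Without 1 embryoid body array the difference is that of the other replicate number, and the lone pair is assumed to vary like the other groups. Array signal near background limits dim genes such as Cdkn2a.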

Other observations

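Of the 271 genes called in embryoid bodies 195 stood in no list, and those named here were chosen after their values were seen. Among the higher genes, Slco4a1, an organic anion transporter, read 10.07 and 10.27 log2 units in labelled Bmi1 and 8.05 and 7.87 in vector embryoid bodies, a difference of 2.21 ± 0.14 (SE over n = 2 arrays a group, adjusted p = 0.00389 by limma). Rassf6, a Ras-association domain protein, differed by 2.17 ± 0.24, and Lgals3, a galectin of epithelia and macrophages, read 12.07 and 11.44 against 10.21 and 9.96. Vnn1, a pantetheinase, read 10.55 and 10.61 against 8.22 and 9.46, and Scd1, which desaturates fatty acids, differed by 1.37 ± 0.20. The interferon-inducible genes Helz2 (1.42 ± 0.18), Gbp7 (1.41 ± 0.18) and Nmi (1.38 ± 0.15) were also among them, as was the heat shock gene Hspa1b (1.64 ± 0.19).

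Lower genes in no list included mesodermal and vascular regulators. Osr1, a factor of intermediate mesoderm and kidney precursors, read 6.04 and 6.25 in labelled Bmi1 and 7.01 and 7.58 in vector embryoid bodies, a difference of -1.15 ± 0.16 (SE over n = 2 arrays a group, adjusted p = 0.0279 by limma). Pitx1, a hindlimb homeobox gene, read 7.19 and 7.34 against 8.29 and 8.01. Rhoj, a small GTPase of endothelium, read 6.32 and 6.66 against 7.64 and 7.66, and Tmem88, a membrane protein that inhibits Wnt signalling, read 8.88 and 8.47 against 9.90 and 9.39. In each of these genes both arrays labelled Bmi1 lay below both vector arrays. Stc2, a secreted glycoprotein, differed by -1.25 ± 0.15, with groups that overlapped, at 6.56 and 7.61 against 7.56 and 9.11.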
